A study of Saccharomyces cerevisiae with 58 samples.

Results

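The kinetochore is the protein assembly that ties each centromere to spindle microtubules, and the spindle checkpoint is the signalling pathway that delays anaphase until every kinetochore is attached. In budding yeast the assembly is built in layers. An inner layer recognises centromeric DNA and its specialised nucleosome, a middle layer bridges to the outer complexes, and the outer complexes hold a single microtubule. Checkpoint proteins load onto the outer layer when attachment fails and hold back the ubiquitin ligase that starts anaphase. The transcripts of 45 genes of this machinery were examined among the 5449 genes named on the array. They were listed by gene symbol in the platform's annotation, and no measured value or threshold entered the rule. All 45 had a single probe set, and NDC10 is listed there under its standard name CBF2.

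The wild-type strain was BF264-15DU MATa bar1. The mutant was BF264-15DU MATa with the 6 B-type cyclin genes disrupted. Its alleles of the mitotic cyclins were clb1::URA3 and clb2::LEU2, with clb3::TRP1 and clb4::HIS2 next to them, and those of the S-phase cyclins were clb5::ARG4 and clb6::APE1. It also carried GAL1-CLB1:LEU2, a CLB1 gene behind a promoter driven by galactose and repressed by dextrose. Its label does not list the bar1 mutation. Both strains grew in YEP with dextrose and 1 M sorbitol at 30 degrees Celsius, and small G1 cells were collected by elutriation and followed over time. There were 2 cultures per strain, with 28 wild-type and 30 mutant arrays, and wild-type culture 1 and mutant culture 2 were sampled 8 min ahead of the other 2 cultures.

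Levels are log2 of probe set intensity plus 1, so a difference of 1 is 2-fold. They are not comparable between genes, because probe sets differ in brightness. Array medians lay between 10.79 and 10.92. Intensities of probe sets for genes outside the yeast annotation gave a background level of 9.06. CLB2, CLB3 and CLB4 were below it on 30 of 30 mutant arrays, and these genes are labelled as disrupted. CLB1, CLB5 and CLB6 were below it on 0 of 30, with mutant medians of 11.49, 11.18 and 10.06 against wild-type medians of 10.88, 10.11 and 10.99, and the positions of these probes in the genes were not analysed here. The CLB1 signal was thus not low in the mutant. Whether it came from GAL1-CLB1 or from the disrupted gene was not tested. BAR1 averaged below background in the wild type, as did the alpha-cell genes MF(ALPHA)1 and STE3 in both strains and 6 of 8 meiotic genes in the wild type and 7 of 8 in the mutant. In RNA from whole cultures, fewer cells that express a gene and less RNA per cell cannot be told apart.

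CTF13, a subunit of the centromere-binding CBF3 complex, and SPC24, a subunit of the Ndc80 complex, lay below background on all 28 wild-type and all 30 mutant arrays, so their own changes are not described. The counts over the 45 members still hold them. SPC24 is counted among the members that rose from the first to the third window in both strains, among those highest in the third window in both strains and among the smaller drops in the mutant. CTF13 is counted among those highest at 62 to 102 min in the wild type and at 110 to 150 min in the mutant, and among the early peaks of both strains. MCM22 of the Ctf19 complex was below it on 15 and 23 arrays, and NUF2 of the Ndc80 complex on 21 and 18. These 4 were also the members below background on average. Other members, including MTW1, BUB1, CTF19, DAD2, NDC80 and mutant NKP1, crossed the background level during the course, so their lowest values and their changes are compressed.

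Most members rose in the wild type over the first 3 windows. For the description over time, arrays were averaged per culture in 5 windows, from 30 to 54, 62 to 102, 110 to 150, 158 to 198 and 206 to 262 min. The window mean was highest at 110 to 150 min in 28 of 45 members, against 14.7% of all genes, and at 62 to 102 min in 10 members, against 28.3%. Mutant window means were highest at 110 to 150 min in 22 members, against 13% of all genes, at 62 to 102 min in 11, against 27.7%, and at 158 to 198 min in 5, against 7.58%. Between 30 to 54 and 110 to 150 min, 27 members rose and 3 fell in limma's fit of culture-by-window means at an adjusted p under 0.05, where 32.2% of all genes rose and 33.3% fell. The median step was 0.36 over the members and 0.00 over all genes. In the mutant 31 members rose and 2 fell, against 25.5% and 24.1% of all genes. The rise was larger in the mutant for 7 members, SPC105, CTF3, SPC34, DAD1, CHL4, MCM21 and DAM1, and smaller for 2, BUB3 and CEP3, against 12.2% and 6.2% of all genes. For each of the 7 the first array of both wild-type cultures lay above the next one, which makes the wild-type step smaller. In both mutant cultures this held for SPC105 and DAD1 alone. The larger rise was called for 1 member when wild-type culture 1 was left out, 2 when wild-type culture 2 was and 13 when mutant culture 2 was. Genes of a list of 8 stress and recovery genes were high in the first window, with list means of 11.86 to 13.18 in the 4 cultures and 10.17 to 10.74 at 110 to 150 min. Their part in the rise was not tested.

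**Figure D1:**
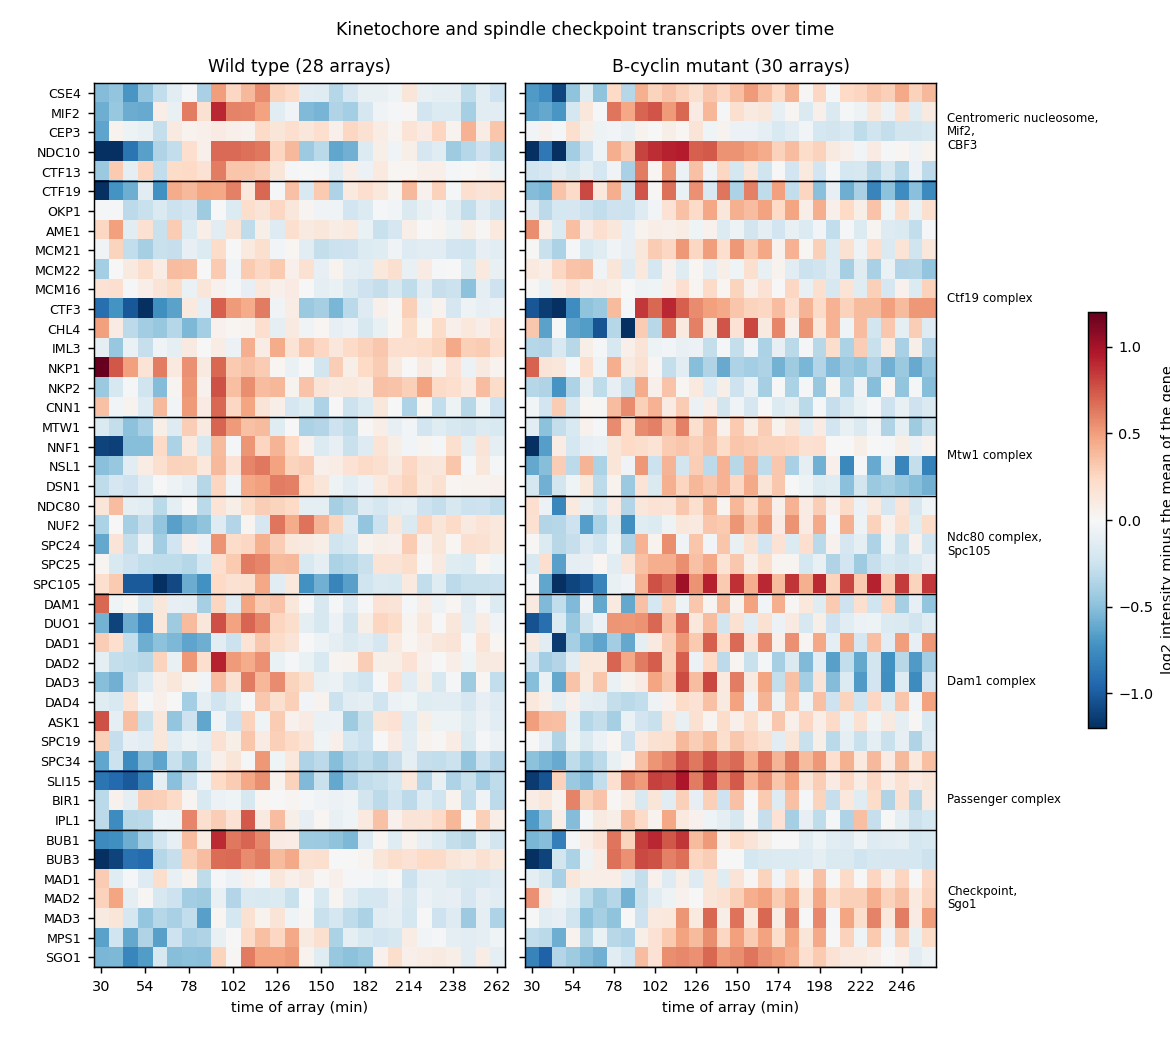
Log2 intensity of the 45 members on each array, minus the mean of the gene over all arrays, with genes in rows by subcomplex and arrays in columns by time in minutes (both cultures of a strain interleaved). Most wild-type rows are reddest between 94 and 134 min and many then turn blue, while SPC105, SPC34 and CTF3 stay red in the mutant to the end of the course.

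Among the genes of the centromeric layer, MIF2, the yeast relative of CENP-C, rose from 9.34 at 30 to 54 min to 10.28 at 62 to 102 min in the wild type and from 9.35 to 10.35 in the mutant. Its first maximum, the highest array between 62 and 158 min, fell at 94 and 102 min in wild-type cells and at 102 and 94 min in mutant cells, so the strains peaked on the same samples of each grid. CSE4, which encodes the centromeric histone H3 variant, had its first maximum at 94 and 118 min in wild-type cells. In mutant cells the highest arrays in that range were the last ones in it, at 150 and 158 min. A later peak can therefore not be read from them. Mutant culture 1 was highest at 246 min, and mutant culture 2 had 9.90 at 94 min and 9.98 at 158 min. CSE4 then stood, at 158 to 198 min, at 9.26 and 9.32 in the wild-type cultures and at 9.86 and 9.73 in the mutant cultures. That difference was 0.50 ± 0.09 (SE, n = 2 cultures per strain), with an adjusted p of 0.0125 in limma. It was still 0.39 ± 0.10 at 206 to 262 min, with an adjusted p of 0.0303.

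NDC10, the scaffold of the CBF3 complex, had one of the widest swings. Wild-type values ran from 8.70 at 38 min over a median of 9.91 to 10.81 at 94 min. Mutant values ran from 8.84 at 30 min over a median of 10.38 to 11.08 at 118 min. The lowest values of both strains came from the earliest samples, and the ranges of the strains overlapped widely. The wild-type cultures stood at 9.86 and 9.76 at 158 to 198 min while the mutant cultures were at 10.54 and 10.49, a difference of 0.70 ± 0.09 with an adjusted p of 0.0038 in limma. CEP3, the DNA-binding subunit of the same complex, went the other way. It rose by 0.34 ± 0.07 between 30 to 54 and 110 to 150 min in the wild type, with a step of -0.02 ± 0.07 in the mutant, and the difference between the steps had an adjusted p of 0.0370. At 206 to 262 min CEP3 was lower in the mutant by -0.41 ± 0.11, with an adjusted p of 0.0355.

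The Ctf19 complex, the inner plate that contacts the centromeric nucleosome, had the smallest median step of the 7 subcomplexes from 30 to 54 to 110 to 150 min. In the wild type the median step of its 12 members was 0.15, with 5 risen and 2 fallen, where 32.2% of all genes rose and 33.3% fell. CTF3, a subunit of the plate's Ctf3 module, had the widest wild-type range over window means in the complex. Wild-type values ran from 8.82 at 54 min over a median of 9.93 to 10.73 at 94 min, and mutant values from 8.21 at 46 min over a median of 10.39 to 10.92 at 110 min. After its peak CTF3 stayed high in the mutant, at 10.24 and 10.36 at 158 to 198 min against 9.77 and 9.78 in the wild type. That difference was 0.52 ± 0.09 with an adjusted p of 0.0101 in limma. The call did not hold when either wild-type culture was left out.

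NKP1, a small accessory subunit, was the single member whose mean level was called lower in the mutant at an adjusted p under 0.05. Wild-type values ran from 8.87 at 150 min over a median of 9.23 to 10.45 at 30 min, and mutant values from 8.48 at 142 min over a median of 8.72 to 9.79 at 30 min. It was highest on the first array in both strains, and 21 of 30 mutant arrays were below background, so the size of the difference is a low estimate. CHL4, which with IML3 links the plate to the nucleosome, split the mutant cultures. Mutant culture 2 at 158 to 198 min had 10.34 and mutant culture 1 had 9.76, against 9.59 and 9.55 in the wild type. Wild-type CHL4 values ran from 9.14 at 78 min over a median of 9.70 to 10.17 at 30 min, and mutant values from 8.31 at 86 min over a median of 9.80 to 10.48 at 158 min. CTF19 split them too, with 8.76 in mutant culture 1 and 9.50 in mutant culture 2 at 158 to 198 min. By 206 to 262 min both mutant cultures were low for CTF19, at 8.34 and 8.69 against 9.12 and 9.32, a difference of -0.70 ± 0.15 with an adjusted p of 0.0179 in limma.

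The 4 genes of the Mtw1 complex, the bridge between inner and outer kinetochore, all rose in both strains between the first and the third window. NNF1 had the widest wild-type range over window means. Its values ran from 8.76 at 38 min over a median of 9.87 to 10.42 at 110 min in wild-type cells and from 8.67 at 30 min over a median of 10.04 to 10.23 at 134 min in mutant cells. The highest arrays of the wild-type cultures, 10.42 in culture 1 and 10.14 in culture 2, lay on either side of those of the mutant cultures, 10.23 and 10.20. The NNF1 difference of 0.35 ± 0.11 at 158 to 198 min had an adjusted p of 0.0631. DSN1, another subunit of the complex, separated late. Between 158 to 198 and 206 to 262 min it dropped by 0.55 ± 0.09 in the mutant, while the wild-type step was 0.15 ± 0.09, and the steps differed with an adjusted p of 0.0192. In the last window DSN1 was at 9.86 and 10.04 in the mutant cultures and at 10.45 and 10.49 in the wild-type cultures.

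The Ndc80 complex binds the microtubule itself, and its transcripts NUF2 and NDC80 had their first maximum after 102 min in every culture. NUF2 had its first maximum at 142 and 134 min in wild-type cells and at 150 and 158 min in mutant cells. NDC80 had it at 126 and 118 min and at 134 and 158 min, although its highest array in wild-type culture 2 was the first one, with 9.57 at 38 min. Wild-type NUF2 values ran from 8.25 at 70 min over a median of 8.82 to 9.55 at 142 min, and mutant values from 8.16 at 86 min over a median of 8.99 to 9.43 at 182 min. NDC80 changed by -0.41 ± 0.10 from 110 to 150 to 158 to 198 min in the wild type, with an adjusted p of 0.0449, and by 0.04 ± 0.10 in the mutant. The difference between these steps, 0.45 ± 0.14, had an adjusted p of 0.179 and did not pass the test.

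SPC105, the scaffold on which the checkpoint kinase Bub1 and its partner Bub3 assemble, showed the largest strain difference of any member at 158 to 198 min. Wild-type values ran from 9.20 at 62 min over a median of 10.14 to 10.86 at 118 min, and mutant values from 8.92 at 46 min over a median of 10.83 to 11.42 at 118 min. In the wild type it peaked at 94 and 118 min and then dropped by 1.02 and 1.12, whereas the mutant cultures peaked at 118 and 110 min and dropped by 0.16 and 0.37. From 30 to 54 to 110 to 150 min it rose by 1.53 ± 0.13 in the mutant, and the wild-type step of 0.27 ± 0.13 had an adjusted p of 0.0928. The steps differed by 1.27 ± 0.18 with an adjusted p of 0.0015 in limma. The first wild-type arrays were high, at 10.60 and 10.71, and the next ones were at 9.40 in both cultures. The first mutant arrays were at 9.78 and 10.38, and the next ones at 9.30 and 8.92. From 9.20 at 62 min and 9.31 at 70 min the wild-type cultures rose to 10.64 and 10.86, so the wild-type step understates that rise. At 158 to 198 min the cultures stood at 9.92 and 9.95 in wild-type cells and at 11.28 and 10.84 in mutant cells, a difference of 1.12 ± 0.15 with an adjusted p of 0.0049.

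The Dam1 complex forms a ring around the microtubule and couples it to the Ndc80 complex. Of its 9 members, 5 rose in wild-type cells and 7 in mutant cells from 30 to 54 to 110 to 150 min, against 32.2% and 25.5% of all genes. DUO1 had the widest wild-type range over window means, and its wild-type values ran from 9.02 at 38 min over a median of 10.21 to 10.91 at 94 min, with mutant values from 9.09 at 30 min over a median of 10.06 to 10.82 at 102 min. The courses of DUO1 in the 4 cultures lay close together, with a strain difference of -0.02 ± 0.13 at 158 to 198 min. SPC34 did not. Its wild-type values ran from 9.34 at 46 min over a median of 9.82 to 10.62 at 118 min, and its mutant values from 9.50 at 46 min over a median of 10.49 to 10.89 at 134 min. SPC34 at 158 to 198 min was 0.91 ± 0.11 higher in the mutant, with an adjusted p of 0.0034, and at 206 to 262 min 0.55 ± 0.12 higher, with an adjusted p of 0.0177. DAD2 was 0.56 ± 0.14 lower in the mutant in that last window, with an adjusted p of 0.0267. It was below background on 14 of 30 mutant arrays. Of all genes, 18.3% were called higher and 14.6% lower in that window. Neither the SPC34 nor the DAD2 call there held when either wild-type culture was left out.

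Of the chromosomal passenger complex, which releases wrongly attached microtubules, SLI15 was the member called in the strain comparisons. It encodes the scaffold that activates the kinase Ipl1. Wild-type SLI15 values ran from 8.69 at 46 min over a median of 9.43 to 10.25 at 118 min, and mutant values from 8.55 at 30 min over a median of 9.96 to 10.66 at 118 min. Its cultures at 158 to 198 min stood at 9.26 and 9.35 in wild-type cells and at 10.22 and 9.98 in mutant cells, a difference of 0.80 ± 0.11 with an adjusted p of 0.0055. IPL1, the Aurora kinase, rose by 0.63 ± 0.08 in wild-type cells and by 0.44 ± 0.08 in mutant cells between the first and the third window. BIR1, the survivin relative, passed no test of change over the windows in either strain, with adjusted p values of 0.318 for wild-type and 0.267 for mutant cells.

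The checkpoint genes fell into several patterns. BUB1 and BUB3 rose early in both strains, with first maxima at 94 and 102 min in wild-type cells and at 102 and 94 min in mutant cells. Wild-type BUB3 values ran from 9.21 at 30 min over a median of 10.69 to 11.20 at 102 min, and mutant values from 9.16 at 30 min over a median of 10.35 to 11.31 at 94 min. BUB3 then settled lower in the mutant, at 10.31 and 10.31 at 206 to 262 min against 10.71 and 10.68, a difference of -0.38 ± 0.09 with an adjusted p of 0.0230. MAD2, the protein that binds and inhibits Cdc20, did not rise in the wild type from 30 to 54 to 110 to 150 min but fell by 0.33 ± 0.10, with an adjusted p of 0.0155. Its highest wild-type arrays were the first ones, 11.08 at 30 min and 11.28 at 38 min. Its lowest were 10.39 at 78 min and 10.38 at 86 min, before the third window. MAD2 was higher in the mutant by 0.50 ± 0.10 at 158 to 198 min, with an adjusted p of 0.0171. MAD1 passed no test of change over the windows in the wild type, and its mutant range of 0.27 had an adjusted p of 0.0315.

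MPS1, the kinase that starts the checkpoint signal, and SGO1, the shugoshin that senses tension between sister kinetochores, rose in both strains and then parted. SGO1 values ran from 9.93 at 46 min over a median of 10.66 to 11.33 at 110 min in wild-type cells, and from 9.74 at 38 min over a median of 10.86 to 11.40 at 134 min in mutant cells. From 110 to 150 to 158 to 198 min SGO1 dropped by 0.67 ± 0.08 in the wild type, with an adjusted p of 0.00081, and the mutant step was -0.12 ± 0.08. MPS1 dropped by 0.49 ± 0.07 in the wild type, with an adjusted p of 0.0021, and the mutant step was -0.06 ± 0.07. The steps differed between strains by 0.55 ± 0.11 for SGO1 and 0.43 ± 0.10 for MPS1, with adjusted p values of 0.0324 and 0.0448 in limma. Neither call held when any 1 culture was left out, and the steps were added after the data had been seen. In the next step SGO1 dropped by 0.41 ± 0.08 in the mutant, where the wild-type step was 0.38 ± 0.08, and the strain means in the last window were 10.76 and 10.75. That last difference between steps had an adjusted p of 0.0071.

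**Figure D2:**
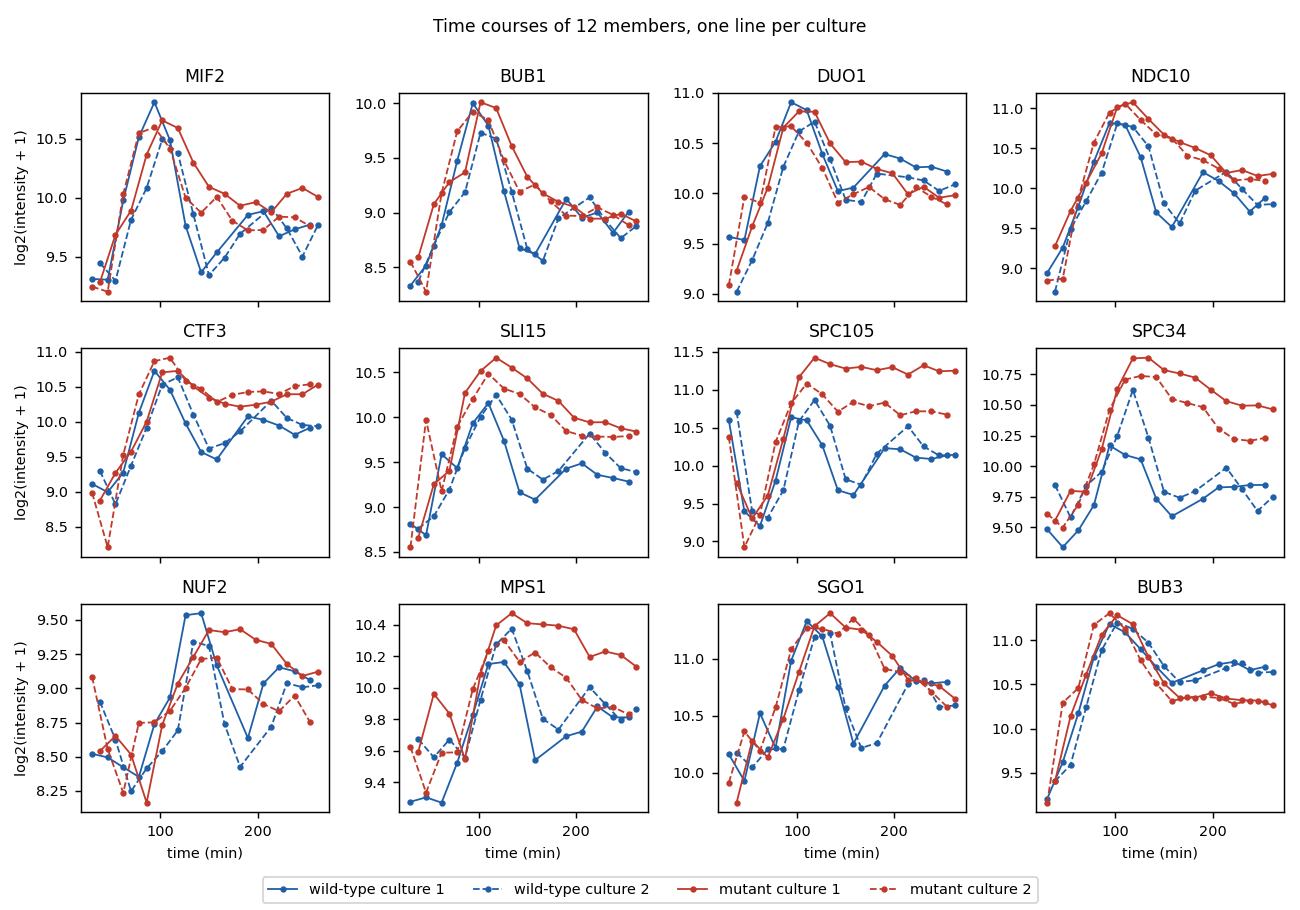
Time courses of 12 members on the log2(intensity + 1) scale against time in minutes, with wild-type cultures in blue, mutant cultures in red, culture 1 as a solid and culture 2 as a dashed line. MIF2, BUB1 and DUO1 run close together in the strains up to their maximum, while NDC10, CTF3, SPC105, SPC34, MPS1 and SGO1 dip in the wild type by 158 to 182 min where the mutant lines lie above them.

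The steps between windows were added after the data had been seen. From 110 to 150 to 158 to 198 min, 11 of 45 members fell in the wild type, where 2.61% of all genes fell, and 3 fell in the mutant, where 3.91% of all genes fell. The 11 were SGO1, NDC10, MPS1, SPC25, SLI15, DSN1, DAD3, NDC80, SPC34, BUB3 and SPC19, and the 3 were BUB3, BUB1 and SPC25. The difference between strains passed for SGO1 and MPS1 alone, 2 members against 0.899% of all genes. At an unadjusted p under 0.05 the fall was smaller in the mutant for 7 members, and the share of all genes at that threshold was not counted. The difference passed for 0 members when any 1 of the 4 cultures was left out. For the wild type alone the count was 1 without its culture 1, 0 without its culture 2 and 22 without the window 30 to 54 min. For the mutant alone it was 1 without any 1 culture and 13 without that window. From 158 to 198 to 206 to 262 min, 7 members fell in the mutant, CTF19, MCM21, DSN1, DAD3, SPC19, MPS1 and SGO1, against 7.49% of all genes. The steps differed between strains for SGO1 and DSN1, 2 members against 1.08% of all genes, and for 0 members when mutant culture 1 or either wild-type culture was left out. The mutant count was 2 when either wild-type culture was left out, 1 when mutant culture 1 was left out, 3 when mutant culture 2 was and 21 without the window 30 to 54 min. In the wild type 0 members rose or fell by limma at an adjusted p under 0.05, against 0.0551% and 0.0734% of all genes, and 5 had an unadjusted p under 0.05.

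The size of the drop was also read from single arrays, as the first maximum between 62 and 158 min minus the lowest later value up to 198 min. This measure was chosen after the data had been seen, and a culture that peaks later has fewer arrays left in which to fall. Both mutant cultures dropped less than both wild-type cultures for 26 of 45 members, 57.8%, where 34.6% of all genes did so. The 2 members with larger drops in both mutant cultures were CEP3 and BUB3, and 24.2% of all genes behaved that way. The median drop over the members was 0.61 in wild-type cells and 0.38 in mutant cells, and over all genes 0.32 and 0.27. NUF2 dropped by 0.91 and 0.92 in wild-type cells and by 0.07 and 0.23 in mutant cells. Its mutant maxima lay on the last arrays searched, at 150 and 158 min. ASK1, of the Dam1 complex, dropped by 0.37 and 0.49 against 0.02 and 0.02. Its mutant maxima, 10.87 at 150 min and 11.03 at 142 min, were exceeded later, by 10.88 at 198 min and 11.13 at 174 min. For NUF2 and ASK1 a smaller mutant drop can therefore not be told from a level that stayed high or still rose. BUB1 fell clearly in all 4 cultures, with drops of 1.38 and 1.17 against 0.96 and 0.95.

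**Figure D3:**
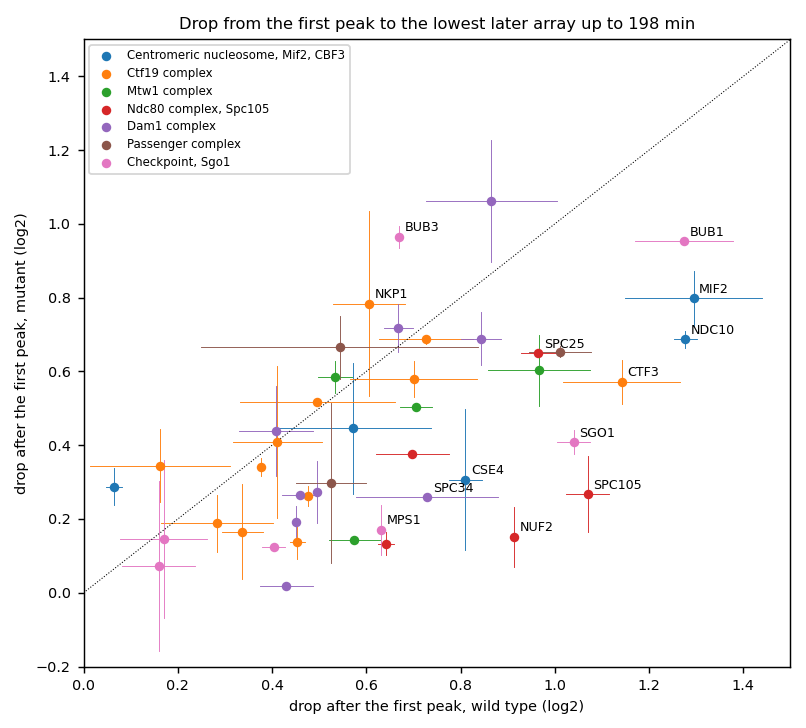
Drop after the first maximum in the wild type (x) and in the mutant (y), both in log2 units, with a point per member at the mean of 2 cultures, coloured by subcomplex, and lines that join the values of the 2 cultures. Most points lie under the dotted line of equal drops, among them NUF2, SPC105 and SGO1, while BUB3 lies above it.

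The counts of first maxima by time were also chosen after the data had been seen. In the wild type both cultures peaked by 102 min for 11 members, among them MIF2, NDC10, MTW1, BUB1 and BUB3, and both peaked at or after 110 min for 20 members, among them NDC80, NUF2, DSN1, MPS1 and SGO1. Over all genes these shares were 44.8% and 29.5%. In the mutant 15 members peaked by 102 min in both cultures and 25 at or after 110 min, against 45.6% and 36.2% of all genes. Both mutant cultures had their first maximum later than both wild-type cultures for 11 members, CSE4, NDC10, OKP1, CHL4, NNF1, NDC80, NUF2, DAM1, DAD3, ASK1 and SPC34, where 14.4% of all genes did so. They had it earlier for 5, CTF19, IML3, NKP1, CNN1 and NSL1, against 10.5% of all genes. The last mutant arrays searched were at 150 min in culture 1 and 158 min in culture 2. Both maxima of CSE4, CHL4, NUF2 and DAM1 lay on these arrays. So did those of OKP1, NNF1 and NDC80 in culture 2 and of ASK1 in culture 1. For these a later peak cannot be told from a level that stayed high. Arrays of a culture were 16 min apart, so shifts of 1 sample are at the limit of the sampling.

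Strain differences of members were called from 110 to 150 min on, where larger shares of all genes were called too. At 30 to 54 and at 62 to 102 min 0 members differed in limma's fit of culture means at an adjusted p under 0.05, where 0.0734% and 0.367% of all genes were higher in the mutant and 0.0367% and 0.477% lower. At an unadjusted p under 0.05 2 members differed in each of these windows. At 110 to 150 min 5 were higher, NDC10, CTF3, SPC105, SPC34 and SLI15, against 4.59% of all genes, and 0 were lower, against 4.11%. At 158 to 198 min 12 of 45, 26.7%, were higher against 13.6% of all genes, and 1, NKP1, was lower against 9.73%. The 12 were SPC105, SPC34, SLI15, SGO1, NDC10, MPS1, NDC80, CTF3, MCM21, CSE4, MAD2 and OKP1, with differences from 1.12 down to 0.47. The median difference in that window was 0.28 over the members and 0.02 over all genes. Before it, the members' median was -0.01 at 30 to 54, 0.04 at 62 to 102 and 0.10 at 110 to 150 min. In the last window it was -0.0047 over the members and 0.01 over all genes. At 206 to 262 min 6 were higher, CTF3, CSE4, MAD2, SPC34, SPC105 and SLI15, and 6 lower, CTF19, CEP3, BUB3, DSN1, NKP1 and DAD2, against 18.3% and 14.6% of all genes.

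The count of members called moved with single cultures. SPC105, SPC34, SLI15, SGO1, NDC10 and NKP1 were called at 158 to 198 min whichever culture was left out, and MPS1 in all but the fit without wild-type culture 1. CSE4, OKP1, MCM21, CTF3, NDC80 and MAD2 missed the threshold without either wild-type culture, and OKP1 also without mutant culture 1. The count at 158 to 198 min was 13 with all cultures, 7 when either wild-type culture was left out and 27 when mutant culture 2 was. At 206 to 262 min it was 12 with all cultures, 0 when either wild-type culture was left out, 17 when mutant culture 1 was and 33 when mutant culture 2 was. At 110 to 150 min it was 5, then 0 when wild-type culture 1 was left out, 1 when wild-type culture 2 was and 17 when mutant culture 2 was. Other genes moved in the same windows. At 206 to 262 min the mean of the 8 stress and recovery genes was 10.55 and 10.48 in the wild-type cultures and 12.56 and 11.88 in the mutant cultures. The mean of 7 genes specific to a cells was 11.73 and 11.66 against 10.31 and 10.19. Their part in the members' differences was not tested.

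**Figure D4:**
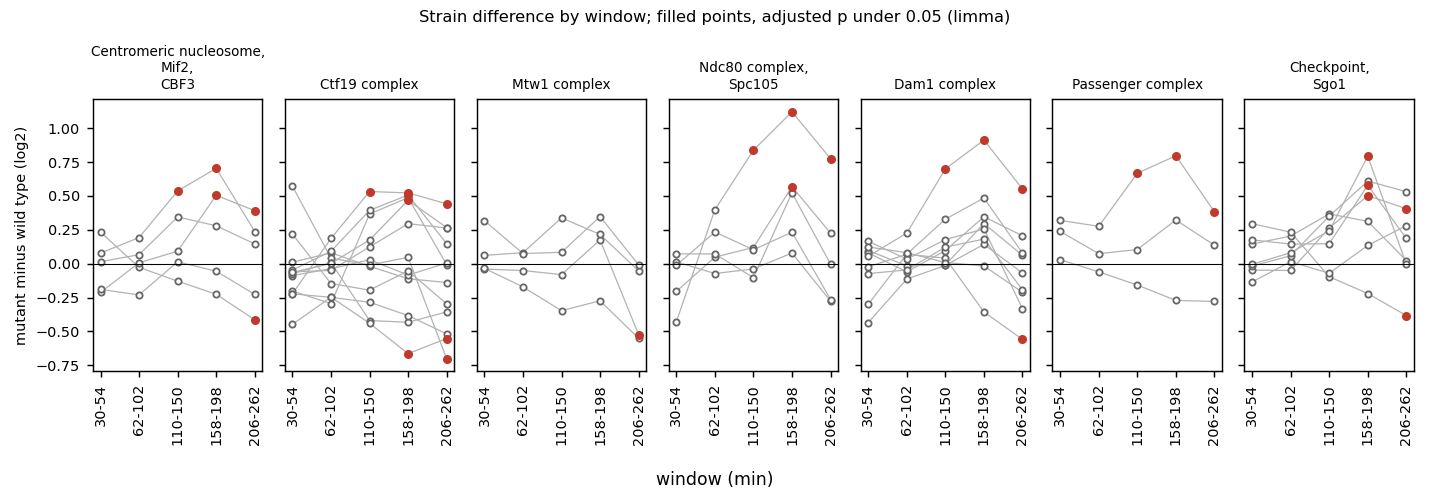
Mutant minus wild type (log2) in each of 5 windows of time in minutes, one panel per subcomplex and one grey line per member, with filled red points at an adjusted p under 0.05 in limma. No member is filled at 30 to 54 or 62 to 102 min, and the filled points reach 1.12 for SPC105 at 158 to 198 min.

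Averaged over all shared times, 5 members were higher in the mutant and 1 was lower, against 5.69% and 5.07% of all genes. SPC105 was higher by 0.58 ± 0.12 with an adjusted p of 0.0289, SPC34 by 0.49 ± 0.10 with 0.0244, and SLI15 by 0.47 ± 0.09 with 0.0200. NDC10 was higher by 0.34 ± 0.08 with an adjusted p of 0.0468 and CTF3 by 0.32 ± 0.08 with 0.0427, and NKP1 was lower by -0.46 ± 0.10 with 0.0314. Quantile normalization ended the calls of NDC10, with an adjusted p of 0.0565, and of NKP1, with 0.0646. The sampling grid as a block ended those of NDC10, CTF3 and NKP1, with adjusted p values of 0.0713, 0.0716 and 0.0519. SPC105 was called whichever culture was left out. The counts of higher and lower members were 1 and 0 when wild-type culture 1 was left out and 3 and 1 when wild-type culture 2 was. They were 5 and 2 when mutant culture 1 was left out and 11 and 8 when mutant culture 2 was. The cultures of the 2 strains did not overlap for 25 of 45 members, where this held for 58.3% of all genes.

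A change over the 5 windows passed in the wild type for 34 members, against 69.1% of all genes, and in the mutant for 40, against 76% of all genes. With a single wild-type culture in the fit the wild-type count was 9 (culture 1 left out) or 10 (culture 2 left out). The courses differed between strains for 21 members in the strain by window interaction, against 38% of all genes. BUB3, SPC105, SPC34, SGO1 and CHL4 had the smallest p values. That count was 3 when either wild-type culture was left out, 12 when mutant culture 1 was and 27 when mutant culture 2 was. The interaction was called in 6 of 9 Dam1 members, 5 of 12 Ctf19 members and 0 of 3 passenger members.

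Rhythmic courses were tested with a cosine and a sine term at one period per strain, 102 min for wild-type and 155 min for mutant cells. Single cultures gave 95 and 96 min for the wild type and 132 and 131 min for the mutant, and the p values treat arrays of a culture as independent. With a peak-to-trough of at least 1.5-fold, 14 wild-type and 17 mutant courses were periodic, against 11.1% and 12.4% of all genes, and 12 members were periodic in both, against 7.18%. NDC10 had a fitted peak-to-trough of 1.05 ± 0.20 for wild-type and 1.05 ± 0.22 for mutant cells on the log2 scale, and CTF3 of 0.98 ± 0.15 and 0.98 ± 0.20. The mutant count depended on the period. It was 8 at the mean of the single-culture periods, 4 without arrays before 62 min and 0 when either mutant culture was left out. For the wild type it was 5 when its culture 1 was left out and 0 when its culture 2 was. The sampled span holds less than 2 periods of 155 min. The size of the swings over time differed between strains for 0 members by limma at an adjusted p under 0.05, against 0.147% of all genes lower and 0% higher in the mutant, and for 2 at an unadjusted p under 0.05.

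Of the other genes of the pathway, 3 of 32 were higher and 3 lower in the mutant over all shared times, where 5.69% of all genes were higher and 5.07% lower. Among 12 genes of kinetochore microtubules, STU2, which encodes a microtubule polymerase, was higher by 0.37 ± 0.08 and KAR3, a minus-end motor, by 0.49 ± 0.12, with adjusted p values of 0.0314 and 0.0466. ASE1, which bundles microtubules of the spindle midzone, was lower by -0.68 ± 0.08 with an adjusted p of 0.0024. Among 10 genes of checkpoint output and related pathways, CDC20, the activator of the anaphase ligase and the target of Mad2, was lower by -1.07 ± 0.08 with an adjusted p of 0.00046. CDC20 was below background on 23 of 30 mutant arrays and its mutant mean of 8.94 lay under the background level, so the size of that difference is a low estimate. CDC5, the polo kinase, was lower by -0.57 ± 0.11 with 0.0213, and CSM1, a subunit of monopolin, was higher by 0.37 ± 0.08 with 0.0310. No checkpoint member, 0 of 7, was called in that comparison in either direction, and 3 had an unadjusted p under 0.05. Another 10 kinetochore genes had 0 calls in limma in either direction and 3 at an unadjusted p under 0.05. In the window 158 to 198 min alone, 9 of the 32 pathway genes were higher in the mutant, against 13.6% of all genes, and 2 were lower, against 9.73%. Of these, 6 and 1 were genes of kinetochore microtubules.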

How the data were processed

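By its range of values, the deposited table holds linear probe set intensity for Affymetrix arrays of biotin-labelled total RNA. Per the submitters' processing notes the authors worked with affy 1.8.1. The background correction, summary and scaling are not given in the sources used here. Intensities ran from 86.1 to 33787. Log2(intensity + 1) was computed for 5449 genes, with the brightest probe set per gene, and names came from the platform table and the R64 annotation. The number of arrays and cultures limits the precision. The replicate was the culture (n = 2 per strain).

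Tests used limma 3.58.1 in R 4.3.3 with Benjamini-Hochberg adjustment over all genes. Counts at an unadjusted p under 0.05 were made over the members and other listed genes only. They have no share of all genes beside them and cannot be set against one. Means over shared times used 56 arrays and left out the mutant arrays at 174 min of culture 2 and 198 min of culture 1, which the periodicity fit used. Background was the 95th percentile of the means of 1746 probe sets of genes outside the annotation. The fits were tested on simulated data, in which arrays varied independently within a culture and with less spread than the real arrays. Those simulated data therefore do not test dependence between arrays of a culture or the real noise level. The rule for members used gene symbols and no values, but members and lists were chosen with earlier results of these data known. Named in full were members called in the level test, the widest wild-type range over window means per subcomplex and the 5 smallest interaction p values, and the other named members were added after their values were seen. Alternatives covered normalization, pseudocount, filters, sampling grid, period, windows and left-out cultures.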

Additional observations from a re-analysis of the deposited data

Results flagged for a closer look

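The time course differed between the strains in the strain by window interaction of limma's fit, a test of the difference itself, for 21 members. The adjusted p values were 0.00016 for BUB3, 0.00073 for SPC105, 0.00092 for SPC34, 0.0014 for SGO1, 0.0042 for CHL4 and 0.0063 for CEP3. They were 0.012 for CTF19, 0.0121 for DSN1, 0.0130 for MCM21, 0.0137 for NDC80 and 0.0165 for MPS1. They were 0.0216 for DAD1, 0.0253 for OKP1, 0.0254 for MAD2, 0.0292 for CTF3, 0.0337 for SPC19, 0.0339 for CSE4 and 0.0368 for DAM1. DAD2, SPC25 and DAD3 had 0.0427, 0.0428 and 0.0441. The count was 3 without either wild-type culture and 38% of all genes passed the same test.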

How the results depend on the processing

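With 2 cultures per strain, leaving out 1 culture moved most counts. Members higher in mean level ranged from 1 to 11 and lower from 0 to 8, over all genes 289 to 1594. Members called by window ranged from 0 to 0, 0 to 2, 0 to 17, 7 to 27 and 0 to 33 in order of time. Change over windows ranged from 9 to 35 in the wild type and from 33 to 34 in the mutant, the interaction from 3 to 27, and periodic members from 0 to 14 in the wild type and from 0 to 17 in the mutant. The first step up ranged from 18 to 29 in the wild type and from 28 to 29 in the mutant. The fall from 110 to 150 to 158 to 198 min ranged from 0 to 15 in the wild type and was 1 in the mutant in every such fit, and its difference was 0. The difference in the first step ranged from 1 to 13, the last mutant step from 1 to 3 and its difference from 0 to 2. A lone culture was assumed to vary like those of the other strain.

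Quantile normalization left 0 members lower in level, 1 member falling in the mutant, 1 with a difference in that fall and 7 periodic in the mutant. NDC10 and NKP1 then lost their level call. Mutant periodic members numbered 8 with array medians centred, 7 with a pseudocount of 50, 4 without a linear time term, 4 without arrays before 62 min, 8 at the mean single-culture period and 0 at the period of the other strain. Wild-type periodic members numbered 9 without arrays before 62 min. The sampling grid as a block gave 3 members higher, 0 lower and 22 called at 158 to 198 min. Without the window 30 to 54 min, 22 members fell in the wild type, 13 fell in the mutant and 1 rose in the last wild-type step, and in that last step 21 fell in the mutant and the mutant step lay below that of the wild type in 17. Cultures were not paired by replicate number, because the labels do not say that a number is shared between strains. Deviations of same-numbered cultures correlated at -0.056 over genes, and those of cultures on the same sampling grid at 0.056. With 2 cultures per strain these are the same value with opposite signs, so they cannot tell whether cultures were paired. With the replicate number as a block, 5 members were higher, 1 was lower, 18 were called at 158 to 198 min and 741 genes were called in level, and no count moved by over 1.5 times. The causes were not tested. No direction of a called member turned. Dim probe sets near the background limit what can be read of CTF13, SPC24, MCM22 and NUF2.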
